A study of Mus musculus with 2 samples.

Results

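Cell cycle genes were examined in monocytes that had been sorted from mouse spleen, as a set of 42 genes out of 24700 named genes on the array. The members were chosen by name, with earlier results of these data known, so the choice was not blind to the values. They are genes that run the G1 phase, the entry into S phase, DNA synthesis and mitosis and inhibitors of cyclin-dependent kinases (CDKs). The array carried 82 probes for them and at least 1 for each. The groups were 5/6Nx, in which a 5/6 nephrectomy takes away most of the kidney tissue as a model of chronic kidney disease, and sham, an operation without that loss. All cells came from ICR mice, an outbred stock, and were sorted at 8 weeks after the operation with antibodies to CD11b and Ly6C. Each group had 1 array, and the number, age and sex of the mice behind each RNA sample are not given in the sources used here. Nothing below is therefore tested across animals, and every difference is a description of these 2 arrays.

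In a dividing cell, D-type cyclins bind CDK4 and CDK6 and inactivate the retinoblastoma protein, which frees E2F factors to switch on cyclin E and the genes of DNA synthesis. The MCM helicase, PCNA and the enzymes that make deoxynucleotides then copy the genome, and cyclins A and B with CDK1, the Polo and Aurora kinases and spindle motors carry the cell through mitosis. CDK inhibitors hold these kinases back. Mature monocytes are mostly out of cycle, whereas their progenitors and activated lymphocytes divide, and cyclins D2 and D3 are also the main D cyclins of lymphocytes.

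On the 5/6Nx array 2 of the 3 D cyclins, the proliferation marker Mki67 and cyclin E1 were higher than on the sham array. Within 2-fold lay 8 of 10 S phase genes and 8 of the 12 mitotic genes measured on both arrays, beside 12011 of all 15642 measured genes. Both arrays measured 34 members, and 10 of them (29.4%) exceeded sham by 2-fold or more in 5/6Nx, against 12.3% of all 15642 measured genes. None of the 34 was at least 2-fold lower, against 10.9% of all genes. The median difference over the 34 was 0.50 in log2 units, 5/6Nx minus sham, beside -0.12 over all measured genes. A further 6 members, all of the G2 and mitosis group, passed the background call in 5/6Nx alone, which is 15.0% of the 40 members above background on either array and compares with 9.04% of all genes. None passed in sham alone, as did 2.35% of all genes. Ccne2 and Bub1b were not well above background on either array.

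A value is the log2 of the processed intensity minus the log2 of its array's 75th percentile, 547.5 for 5/6Nx and 442.1 for sham. Intensities are quoted as deposited, without scaling between arrays, so a gene with equal intensities has a difference of -0.31 after scaling, as Mcm3 shows. Each gene is represented by its brightest probe among those well above background on both arrays. Among probes printed many times, the difference of single spots had an SD of 0.059 in log2 units over 283 probes. These are bright probes on 1 pair of arrays, so the spread covers neither dim probes nor differences that arise in labelling, in the sort or between mice.

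Markers of other spleen cells also differed between the arrays. Summed levels below are in multiples of the 75th percentile, over the genes of a list that were above background on either array. On the 5/6Nx array 39735 of 59305 spots (67.0%) were well above background, against 37333 (63.0%) on the sham array. All 12 monocyte markers were measured on both arrays, with a summed level of 1561 in 5/6Nx and 1226 in sham and a median difference of -0.44. The sort antigen gene Itgam, which encodes CD11b, differed by -0.35 and Ly6c1 by 1.98, while Cx3cr1 and Fcgr1 differed by -4.24 and 2.63. Of 14 measured T cell markers 13 were higher by 2-fold or more in 5/6Nx, with a summed level of 79.6 there and 4.11 in sham, and Cd8a and Ctla4 were not well above background on the sham array. Cd3g, Cd3d and Cd8b1 differed by 6.31, 6.19 and 5.78. All 4 measured NK cell markers were likewise higher, with a summed level of 93.9 in 5/6Nx and 0.797 in sham, and 7 more, Nkg7 among them, passed the background call in 5/6Nx alone. Gzma, Il2rb and Tbx21 differed by 9.56, 7.67 and 3.36. The part of these cells in the cell cycle values was not tested, and more cells of a type cannot be told apart from more RNA per cell.

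B cell markers had 3 of 8 measured genes at least 2-fold higher and none lower, with Cd79b at 1.92, and 4 more passed the background call in 5/6Nx alone, with a summed level of 6.28 in 5/6Nx and 3.52 in sham. Plasma cell markers had 2 of 4 higher and 1 lower, with Irf4 at 4.41 and Sdc1 at -2.10. Their summed level was 113.0 in 5/6Nx and 39.5 in sham, and 50.5 and 39.4 over the 4 measured genes alone. Xbp1, within 2-fold at 0.30, was the brightest of these 4 on both arrays, at 23312 in 5/6Nx and 15321 in sham. A further 4, named after their values were seen, passed the background call in 5/6Nx alone, with Jchain at least 1818-fold, Mzb1 at least 171-fold, Derl3 at least 123-fold and Tnfrsf17 at least 3.56-fold higher. Granulocyte-monocyte progenitor markers had 2 of 5 higher and 2 lower, with Cd34 at -2.93, Elane at -1.66 and Mpo at 1.36, and Prtn3 and Ms4a3 were not well above background on either array. Ctsg, also named afterwards, passed in 5/6Nx alone and was at least 17.4-fold higher. The summed level of the progenitor markers was 2.0 in 5/6Nx and 2.28 in sham, and 1.49 and 2.25 without Ctsg. For erythroid precursors 1 of 4 measured markers was at least 2-fold higher, Hba-a1 at 2.70, while Alas2, Slc4a1, Rhag and Hbb-b1, among others, were not well above background on either array. Gata1, at least 5.63-fold higher, passed in 5/6Nx alone and Klf1, at least 1.64-fold lower in 5/6Nx, in sham alone, both named after their values were seen. Neutrophil markers had 3 of 6 higher and 1 lower, with Lcn2 at 7.31 and Mmp8 at -3.97. Their summed level was 29.2 in 5/6Nx and 31.8 in sham, and Ltf, Ngp and Retnlg were not well above background on either array.

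**Figure D1:**
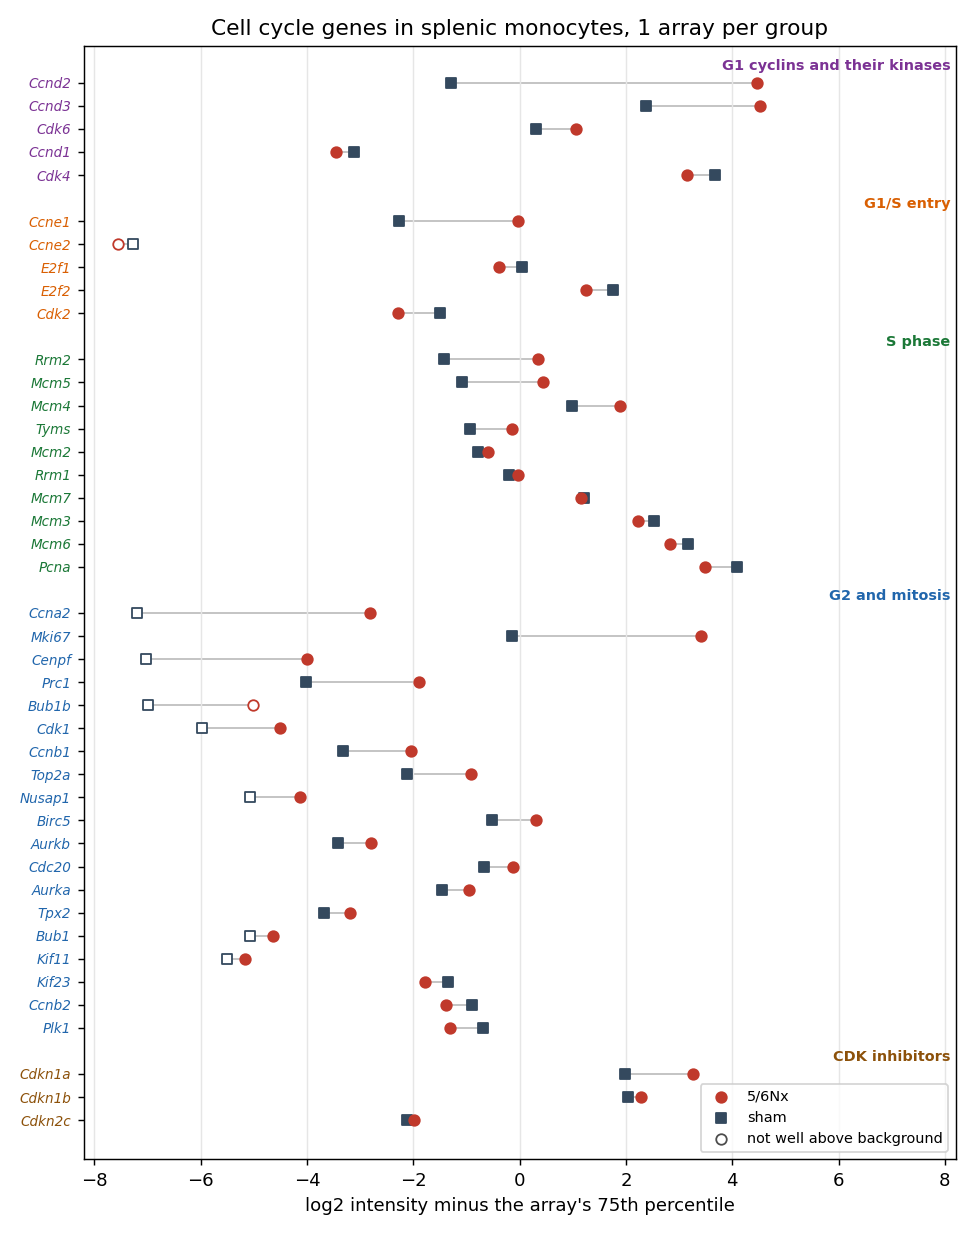
Level of each of the 42 cell cycle genes on the 5/6Nx array (red circles) and the sham array (dark squares), as log2 intensity minus the array's 75th percentile, with open symbols where the probe was not well above background. The widest gap between filled symbols belongs to Ccnd2, and the 6 genes with a filled circle beside an open square are all in the G2 and mitosis group.

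Promoter sequences are shown for 6 members, because the G2 and mitosis genes and the S phase genes carry different sequence elements upstream. Whether the differences are linked to these elements was not tested. The windows run from 250 bases before to 50 bases after a start site, from RefSeq on the build GRCm38.p6, and 41 windows were matched to 35 of the 42 members. Ccnd1, Ccnd2, Ccne2, Ccna2, Aurkb, Tpx2 and Mcm4 had no entry. Capitals mark 3 kinds of element, each searched on both strands. The first is the CCAAT box, spelled CCAAT, and the second the cell cycle genes homology region or CHR, spelled either TTTGAA or else TTCGAA. An E2F word is any of the spellings TTCCCGC and also TTCGCGC, besides TTGCCGC and lastly TTGGCGC. On the other strand a CCAAT box reads ATTGG and the first CHR word reads TTCAAA. No match of one kind overlaps a match of another kind in these 6 windows, although E2F words overlap each other in Mcm5 and Mcm6. Mki67, Top2a and Prc1 are mitotic genes with higher values in 5/6Nx, Ccnb2 is a mitotic gene that was not, Mcm5 is a replication gene that was higher and Mcm6 one that was not.
Mki67 promoter, chr7:135716330-135716629, minus strand: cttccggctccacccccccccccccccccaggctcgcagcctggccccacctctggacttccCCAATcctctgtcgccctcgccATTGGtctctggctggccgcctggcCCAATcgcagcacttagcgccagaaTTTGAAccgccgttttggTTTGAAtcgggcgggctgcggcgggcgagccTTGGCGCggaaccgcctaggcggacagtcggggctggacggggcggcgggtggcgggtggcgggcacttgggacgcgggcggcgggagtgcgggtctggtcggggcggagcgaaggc
Top2a promoter, chr11:99024140-99024439, minus strand: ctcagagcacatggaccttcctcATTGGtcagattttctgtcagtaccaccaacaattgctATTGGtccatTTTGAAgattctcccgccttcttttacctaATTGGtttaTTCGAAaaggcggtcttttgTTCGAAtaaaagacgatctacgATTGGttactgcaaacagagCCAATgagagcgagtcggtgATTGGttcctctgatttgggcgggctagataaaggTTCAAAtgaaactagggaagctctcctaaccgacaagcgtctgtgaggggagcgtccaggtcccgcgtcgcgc
Prc1 promoter, chr7:80294201-80294500, plus strand: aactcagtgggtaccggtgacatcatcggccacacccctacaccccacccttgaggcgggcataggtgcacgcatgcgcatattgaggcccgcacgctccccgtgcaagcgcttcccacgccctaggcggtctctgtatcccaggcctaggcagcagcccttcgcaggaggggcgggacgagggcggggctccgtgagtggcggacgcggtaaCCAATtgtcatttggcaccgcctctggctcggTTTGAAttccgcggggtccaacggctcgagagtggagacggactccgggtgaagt
Ccnb2 promoter, chr9:70421505-70421804, minus strand: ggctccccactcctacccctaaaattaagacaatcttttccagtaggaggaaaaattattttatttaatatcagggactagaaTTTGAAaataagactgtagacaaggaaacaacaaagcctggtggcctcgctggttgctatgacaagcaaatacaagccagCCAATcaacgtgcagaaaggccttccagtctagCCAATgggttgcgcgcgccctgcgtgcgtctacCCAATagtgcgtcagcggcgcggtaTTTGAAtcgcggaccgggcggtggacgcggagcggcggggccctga
Mcm5 promoter, chr8:75109259-75109558, plus strand: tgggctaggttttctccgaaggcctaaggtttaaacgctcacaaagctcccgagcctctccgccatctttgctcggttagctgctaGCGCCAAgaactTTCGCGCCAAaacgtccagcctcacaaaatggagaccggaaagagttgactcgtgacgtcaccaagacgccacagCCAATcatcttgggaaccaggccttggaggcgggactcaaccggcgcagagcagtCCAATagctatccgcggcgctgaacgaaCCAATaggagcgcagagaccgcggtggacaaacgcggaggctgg
Mcm6 promoter, chr1:128359656-128359955, minus strand: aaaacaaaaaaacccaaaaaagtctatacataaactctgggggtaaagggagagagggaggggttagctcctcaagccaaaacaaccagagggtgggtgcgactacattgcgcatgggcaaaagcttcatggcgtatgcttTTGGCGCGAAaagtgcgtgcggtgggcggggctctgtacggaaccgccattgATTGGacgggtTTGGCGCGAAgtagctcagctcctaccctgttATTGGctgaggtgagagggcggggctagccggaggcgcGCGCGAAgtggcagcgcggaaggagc

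A CHR word was found in 14 of 17 promoter windows of the G2 and mitosis group (82.4%), in 2 of 10 of the S phase group (20.0%) and in 19.2% of all 32851 windows in the table. The order was the other way round for the E2F words, which were found in 3 of 17 G2 and mitosis windows (17.6%), in 7 of 10 S phase windows (70.0%) and in 9.57% of all windows. CCAAT boxes stood in 15 of 17 G2 and mitosis windows and 9 of 10 S phase windows, beside 37.4% of all windows. None of the 4 windows of G1 cyclins and their kinases held a CHR or an E2F word. By difference rather than by role, a CHR word stood in 4 of 12 windows of members at least 2-fold higher and in 8 of 23 windows of members within 2-fold, and an E2F word in 4 of 12 and 8 of 23. Among members detected in 5/6Nx alone, all of them mitotic, a CHR word stood in 4 of 5 windows and an E2F word in 1 of 5. Windows of one gene can overlap, as both Prc1 windows do, and a match describes the letters only.

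Ccnd2 had the largest difference of the members. Its brightest probe (chromosome 6, 127080268 to 127080327 on mm9, the build of the files) read an intensity of 12069.8 on the 5/6Nx array and 180.3 on the sham array. This is a difference of 5.76, or 54.1-fold, and rank 90 from the top among the 15642 measured genes. The other Ccnd2 probes read 6740 and 3204 on the 5/6Nx array against 106.6 and 51.7 on the sham array, so the 3 probes lay between 5.64 and 5.76. Over the alternatives in processing the difference ran from 5.30 to 6.18.

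The other D cyclins differed from Ccnd2. Ccnd3 (chromosome 17, 47736579 to 47736638) read 12516.1 on the 5/6Nx array and 2294 on the sham array, a difference of 2.14 or 4.41-fold. A second probe on the same accession gave 2.18 and a probe on another transcript 1.28. Ccnd1 (chromosome 7, 152116202 to 152116261), the D cyclin of many non-blood cells, was dim, at 50.2 on the 5/6Nx array and 50.8 on the sham array. Its difference was -0.33 and turned to 0.097 with spike-in scaling. Lymphocyte markers also differed between the 2 arrays. The summed level was 79.6 in 5/6Nx and 4.11 in sham for T cell markers and 93.9 and 0.797 for NK cell markers. It was 113.0 and 39.5 for plasma cell markers and 6.28 and 3.52 for B cell markers. The part of these cells in the D cyclin values was not tested.

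The kinases that the D cyclins bind were both within 2-fold. Cdk6 read 1140 on the 5/6Nx array and 549.5 on the sham array, a difference of 0.74, and its 3 probes ran from 0.40 to 0.74. Cdk4 read 4862 and 5676 on the 5/6Nx and sham arrays, a difference of -0.53, and its 4 probes ran from -0.70 to -0.53. Both kinases were thus measured by several probes of one sign. The median of the 5 G1 genes was 0.74, the value of Cdk6 itself. With Cdk6 read on the RefSeq mRNA probe it was 0.40.

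**Figure D2:**
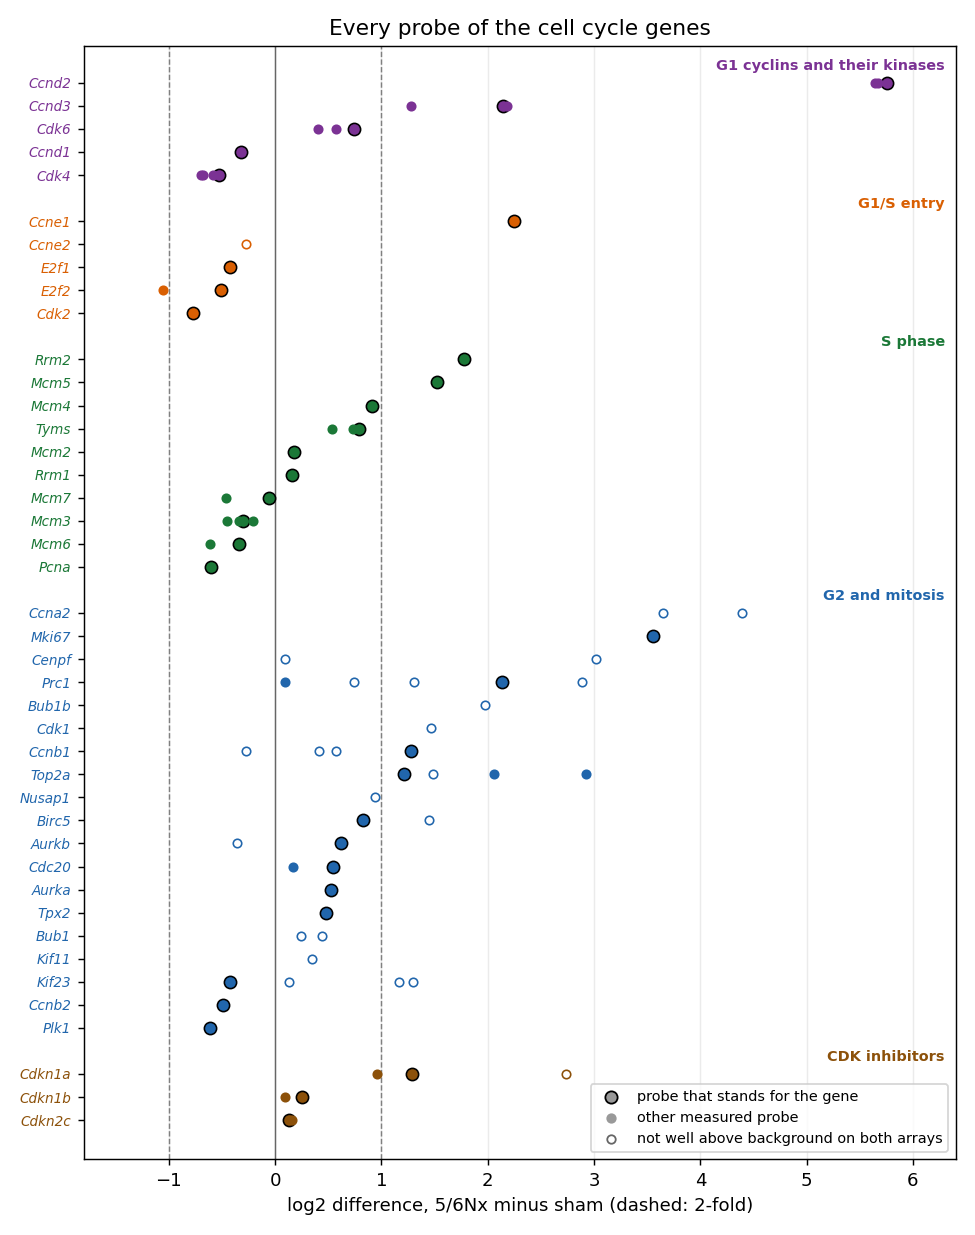
Difference of each of the 82 probes, 5/6Nx minus sham in log2 units, by gene, with the probe that stands for the gene outlined in black and open circles for probes not well above background on both arrays. The 3 Ccnd2 probes lie together near 5.7, whereas the measured probes of Prc1 and Top2a spread over more than 1 log2 unit.

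Of the genes of S phase entry only cyclin E1 was past 2-fold among the 4 measured. Ccne1 (chromosome 7, 38882937 to 38882960), the partner that activates CDK2, read 537.0 on the 5/6Nx array and 91.1 on the sham array, a difference of 2.25 or 4.76-fold, measured by 1 probe. Cdk2 itself was within 2-fold, at 112.6 on the 5/6Nx array and 155.6 on the sham array and a difference of -0.77. The transcription factors E2f1 and E2f2, which activate S phase genes, differed by -0.43 and -0.51. E2f1 read 416.7 on the 5/6Nx array and 453.0 on the sham array, and E2f2 read 1303 and 1496 on the same arrays. A dimmer second probe of E2f2 gave -1.06. Ccne2, the other cyclin E gene, read 2.92 on the 5/6Nx array and 2.86 on the sham array, both within background. The median of the 4 measured genes was -0.47.

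In the S phase group 2 of 10 members were at least 2-fold higher (20.0%), beside 12.3% of all measured genes. The median of the group was 0.16. Rrm2, the regulated subunit of ribonucleotide reductase, read 695.8 on the 5/6Nx array and 164.5 on the sham array, a difference of 1.77 or 3.42-fold. Its partner subunit Rrm1 differed by 0.15, at 533.1 on the 5/6Nx array and 386.9 on the sham array. Tyms, the thymidylate synthase, differed by 0.79 and its 3 probes ran from 0.53 to 0.79. Pcna, the sliding clamp of the DNA polymerases, was among the brightest members and read 6130 on the 5/6Nx array and 7540 on the sham array, a difference of -0.61. Both subunits of one enzyme thus lay on different sides of the 2-fold line.

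The subunits of the MCM2-7 helicase, which opens the DNA at replication forks as a ring of 6 proteins, did not differ by one amount. Mcm5 (chromosome 8, 77651350 to 77651410) read 739.3 on the 5/6Nx array and 208.2 on the sham array, a difference of 1.52 or 2.87-fold. Mcm4 read 2032 and 870.4 on the 5/6Nx and sham arrays, a difference of 0.91 that passed 2-fold only with spike-in scaling. The other subunits lay close to 0, with Mcm2 at 0.17, Mcm7 at -0.06, Mcm3 at -0.31 and Mcm6 at -0.34. All 4 probes of Mcm3 lay between -0.46 and -0.21. The differences of Mcm3, Mcm6 and Mcm7 changed sign with spike-in scaling, to 0.12, 0.079 and 0.36. The median of the 6 subunits was 0.058.

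In the G2 and mitosis group 4 of the 12 measured genes were at least 2-fold higher (33.3%), beside 12.3% of all measured genes. The median of the group was 0.58. Mki67 (chromosome 7, 142881591 to 142881650), which encodes the proliferation antigen Ki-67 of the chromosome surface, read 5822 on the 5/6Nx array and 400.6 on the sham array. The difference was 3.55 or 11.7-fold, by 1 probe, and ran from 3.40 to 3.98 over the alternatives. Mki67 and Ccnd2 were the 2 members at least 8-fold higher (5.88% of 34), against 2.54% of all genes. Prc1, which bundles microtubules in the dividing spindle, read 147.3 on the 5/6Nx array and 27.2 on the sham array, a difference of 2.13, but another measured probe, on a different transcript, gave 0.091.

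Ccnb1, the cyclin B1 of mitotic entry, differed by 1.28, at 132.5 on the 5/6Nx array and 44.1 on the sham array. Of its 4 probes only this 1 was well above background on both arrays. Others read 21.3 and 17.8 in 5/6Nx, against 12.9 and 9.66, not well above background, in sham. A further Ccnb1 probe read 3.20 in 5/6Nx and 3.12 in sham, within background on both arrays. Top2a, the topoisomerase that untangles sister chromatids, differed by 1.21 on its brightest probe, at 290.4 on the 5/6Nx array and 101.4 on the sham array, and by 2.92 and 2.05 on the RefSeq mRNA probes. Prc1, Ccnb1 and Top2a were dim on the sham array. With normexp background correction they were below 2-fold, at 0.90, 0.63 and 0.86. Among genes of lymphocytes, the T cell, NK cell, B cell and plasma cell lists had higher summed levels in 5/6Nx, and their part here was not tested.

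The other 8 measured mitotic genes lay within 2-fold on the probe that stands for each. Birc5, the subunit of the chromosomal passenger complex known as survivin, differed by 0.83, and Aurkb, the kinase of that complex, by 0.62. Cdc20, which activates the anaphase-promoting complex, differed by 0.54, Aurka, a centrosome kinase, by 0.52 and Tpx2, its activator on the spindle, by 0.47. Below 0 were Plk1, the Polo-like kinase, at -0.62, the cyclin Ccnb2 at -0.49 and, on 1 of its probes, the cytokinesis motor Kif23 at -0.43. Plk1 read 220.3 on the 5/6Nx array and 272.7 on the sham array, and Ccnb2 read 209.5 on the 5/6Nx array and 238.0 on the sham array. Cyclins B1 and B2 thus lay on opposite sides of 0, also under every alternative. For Kif23 the measured probe is on the clone AK076271. The 2 RefSeq mRNA probes read 33.997 and 34.99 in 5/6Nx, against 12.2 and 11.5, not well above background, in sham. Their differences of 1.17 and 1.29 were past 2-fold and of the other sign, so the direction for Kif23 depends on the probe.

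The 6 genes detected in 5/6Nx alone are mitotic as well. Ccna2, the cyclin A2 of S phase and G2, read 78.1 on the 5/6Nx array and 3.01 on the sham array and was at least 4.83-fold higher. Cenpf, a kinetochore protein, read 34.1 and 3.40 on the 5/6Nx and sham arrays and was at least 2.11-fold higher, although its other probe was within background on both arrays. Nusap1, a spindle protein, was at least 1.92-fold higher, Cdk1, the kinase of mitotic entry, at least 1.49-fold and the checkpoint kinase Bub1 at least 1.36-fold. Kif11, a spindle motor, read 15.3 on the 5/6Nx array and 9.73 on the sham array, too close to background for a bound. Bub1b, the other Bub1-related checkpoint protein, read 17.0 on the 5/6Nx array and 3.48 on the sham array and was called above background on neither. With these genes at their bound the median of the G2 and mitosis group was 0.62. Each bound sets the bright signal against the higher of the dim probe's signal and the lowest signal called above background on the dim array.

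All 3 CDK inhibitors lay above 0, with a median of 0.25. Cdkn1a (chromosome 17, 29237377 to 29237436), which encodes p21, read 5261 on the 5/6Nx array and 1744 on the sham array, a difference of 1.28 or 2.44-fold, and its other measured probe gave 0.96. A probe on the variant NM_001111099 read 23.3 in 5/6Nx, and 2.82, not well above background, in sham. Cdkn1b, which encodes p27, read 2661 on the 5/6Nx array and 1809 on the sham array, a difference of 0.25. Cdkn2c, which encodes the CDK4 and CDK6 inhibitor p18, differed by 0.13, and by -0.018 with median scaling.

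**Figure D3:**
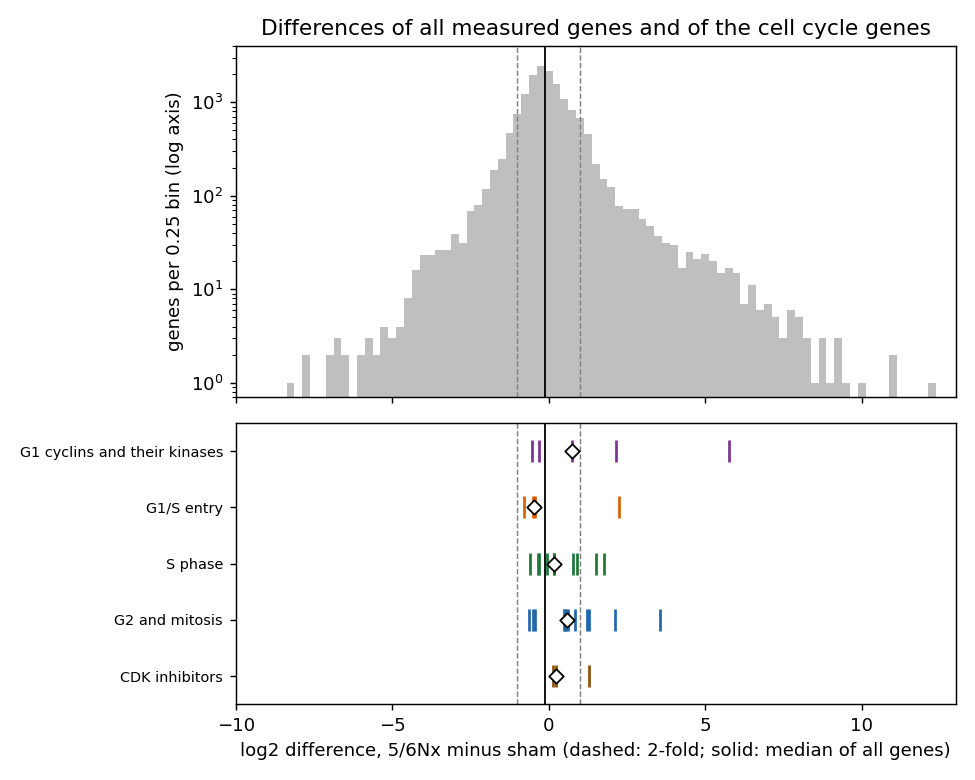
Upper panel, number of measured genes per bin of the log2 difference, 5/6Nx minus sham, on a log axis; lower panel, the 34 measured cell cycle genes by group, with a diamond at each group's median. The group medians lie between -0.47 and 0.74, inside the 2-fold lines, and 10 genes lie beyond the upper line.

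The 5 groups overlapped. S phase genes spanned -0.61 to 1.77, G2 and mitosis genes -0.62 to 3.55, G1 genes -0.53 to 5.76, genes of S phase entry -0.77 to 2.25 and CDK inhibitors 0.13 to 1.28. Each group had at least 1 gene past 2-fold upward and none downward. Dim and bright members gave similar shares, with 6 of 21 members dimmer than the median gene at least 2-fold higher, against 15.5% of all such genes, and 4 of 13 brighter members, against 9.03%. The brighter 4 were Ccnd2, Ccnd3, Mki67 and Cdkn1a.

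Wider lists of cell cycle genes that are no members had a smaller share at least 2-fold higher than the members, near that of all genes. Their share at least 2-fold lower was below that of all genes. Among 33 genes of replication origins and forks, all measured, 6 were at least 2-fold higher and 1 lower, with a median of 0.23. The largest were Tk1, the thymidine kinase of the salvage pathway, at 1.69, Pole, a polymerase subunit, at 1.48 and Uhrf1, which carries DNA methylation through replication, at 1.45, while Gmnn, the licensing inhibitor geminin, differed by -1.06. Of 30 measured genes of the spindle, kinetochore, condensin and cytokinesis 4 were higher and none lower, with a median of 0.48, and Spc24, Pttg1 and Smc4 differed by 2.22, 1.69 and 1.41. Of 10 measured G2/M regulators 1 was higher, Pkmyt1, a kinase that inhibits CDK1, at 2.78, and 1 lower, the checkpoint kinase Chek2 at -1.89. Among 15 measured G1/S regulators Rbl1, the pocket protein p107, differed by 1.58 and the repressor E2f6 by -1.51, and the median was -0.13. Over these 4 lists and the other CDK inhibitors 13 of 91 measured genes were at least 2-fold higher (14.3%) and 3 lower (3.30%), beside 12.3% and 10.9% of all genes.

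Among the other CDK inhibitors Cdkn2b, which encodes p15, differed by 2.25, at 524.0 on the 5/6Nx array and 89.1 on the sham array, while Cdkn2d and Cdkn1c differed by 0.83 and -0.43. Its neighbour Cdkn2a passed the background call in 5/6Nx alone, was at least 5.78-fold higher, and was named after its value was seen. Likewise named afterwards, Nuf2, Ska1, Anln and Pbk passed it in 5/6Nx alone, and Chek1 and Ccna1 in sham alone. Since Cdkn1a is a target of p53, 17 p53 targets were listed too. Of 15 measured 5 were at least 2-fold higher (33.3%) and 4 lower (26.7%), beside 12.3% and 10.9% of all genes. Fas, Pmaip1 and Phlda3 differed by 4.60, 1.75 and 1.53, and Sesn1, Sesn2 and Gadd45a by -2.16, -1.24 and -1.18, so these targets did not move one way.

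**Figure D4:**
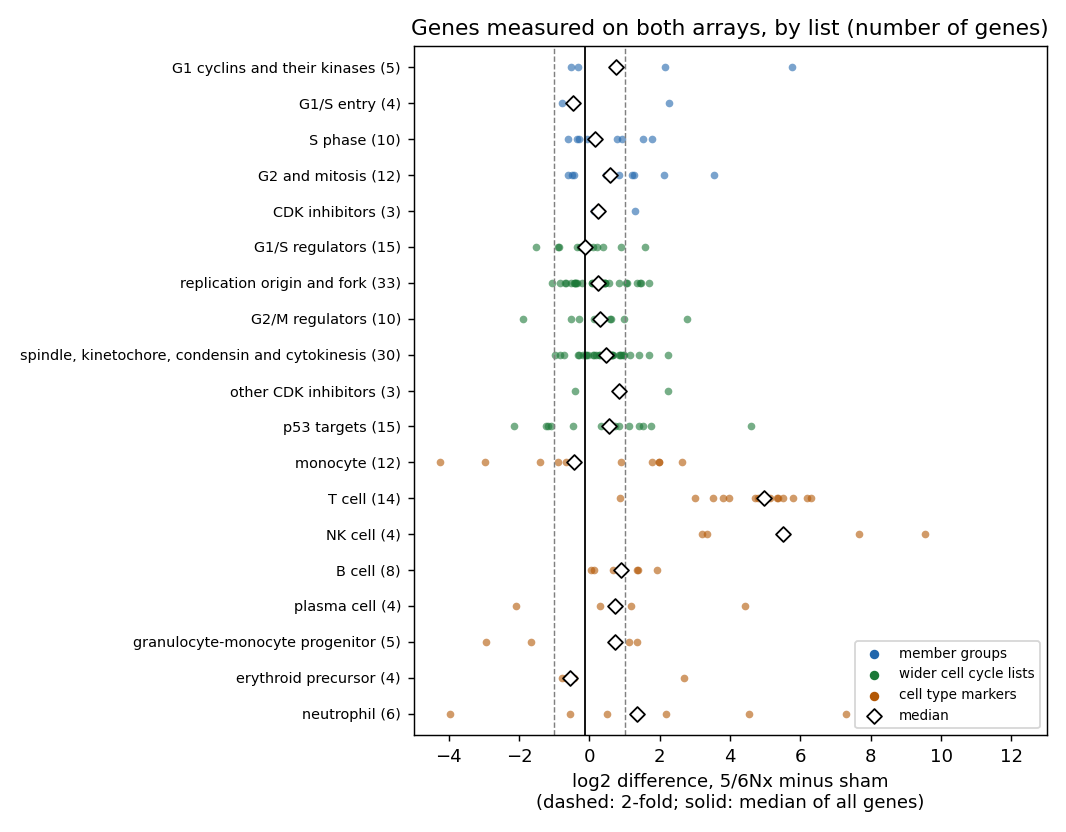
Difference of each measured gene, 5/6Nx minus sham in log2 units, in the member groups (blue), the wider cell cycle lists (green) and the cell type marker lists (orange), with a diamond at the median and the number of measured genes in brackets. The cell cycle medians lie within 1 log2 unit of 0, and the T cell and NK cell medians at 4.96 and 5.51.

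The group medians were also set side by side over the processing settings. Every group kept its sign, and spike-in scaling moved all of them upward, by the same amount as the median of all genes.

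**Figure D5:**
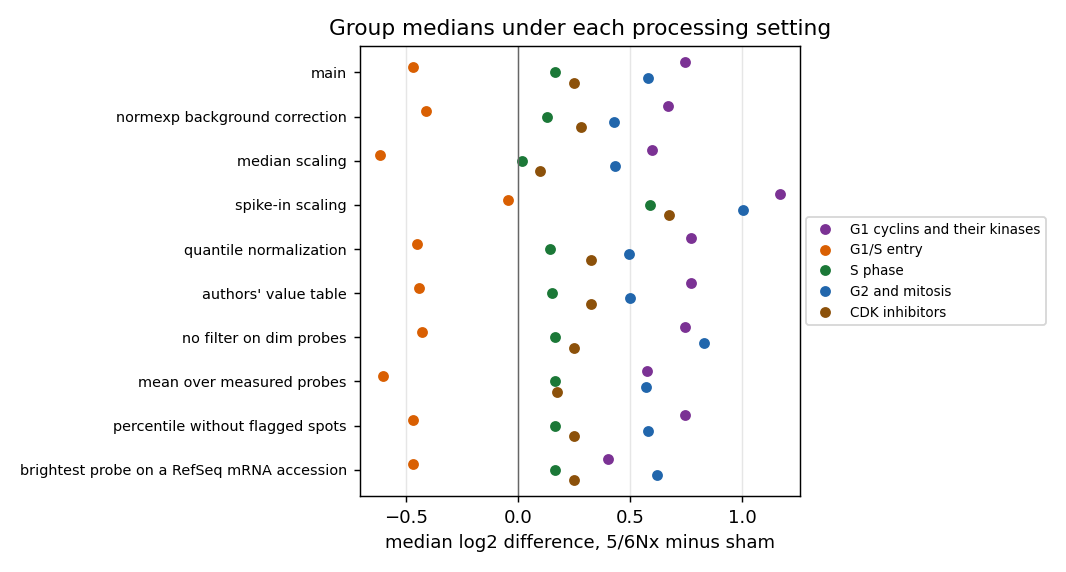
Median log2 difference, 5/6Nx minus sham, of each member group (colours) under the reported processing (top, main) and 9 alternatives. The G1/S entry group is below 0 in every setting, from -0.62 to -0.046, and the other 4 groups are above 0.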

How the data were processed

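The authors deposited 1 scanner file per array, with intensity values from Agilent Feature Extraction (9.5.1.1 per the submitters' processing notes, 10.7.1.1 per the file headers). Local background subtraction was off, a fitted spatial surface was removed, and multiplicative detrending and surrogate values for dim spots were on, per the file headers of these intensity values. The authors' deposited value table, also of linear intensity, has column medians of 48.2 for 5/6Nx and 47.5 for sham and served as an alternative, with its normalization not given in the sources used here. Both arrays lay on 1 slide and shared 1 scan, per the file headers.

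From the deposited intensity a log2 value was computed as in the report, leaving out spots with an outlier flag. No member spot had a flag and none was saturated. Names are those in the files, and a name that is a synonym of 1 symbol in the RefSeq table of GRCm38.p6 was updated, which covered 1042 names, whereas 12366 names outside that table were left out. Every member is named. In the wider lists the 3 largest differences each way past 2-fold are named, and in the marker lists up to 3, apart from items not reported here. Members and lists were chosen with earlier results of these data known. Alternatives numbered 8, with 1 more added after seeing the data. Spike-in scaling sets to 0 the median log2 ratio of the spike-in spots well above background on both arrays. The steps were tested on simulated data. Software was Python 3.11.15, pandas 2.3.3, R 4.3.3 and limma 3.58.1.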

Additional observations from a re-analysis of the deposited data

How the results depend on the processing

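With 1 array per group no p-value, replicate error or paired fit exists. No paired analysis was possible because each group has 1 array. The number of arrays, and for dim genes the signal over background, limit the precision. The count of 10 of 34 members at least 2-fold higher was 7 with normexp background correction and 15 with spike-in scaling. With dim probes kept it was 14 of 42. The share of all genes at least 2-fold higher was 7.42%, 20.9% and 14.9% in these 3 settings, against 12.3% as reported. The count of members at least 2-fold lower stayed at 0 under all 9 alternatives, beside 5.53% to 14.2% of all genes. Spike-in scaling moved the median of all genes by 0.42 and median scaling by -0.15, and the share of higher genes among all genes past 2-fold was 52.9% as reported, 79.1% with spike-in and 40.9% with median scaling. For all members and the groups of G1, S phase entry, S phase, G2 and mitosis and CDK inhibitors, in this order, spike-in scaling gave medians of 0.92, 1.17, -0.046, 0.59, 1.002 and 0.67, and median scaling 0.35, 0.60, -0.62, 0.016, 0.43 and 0.10. With normexp the medians of all members, G1 and G2 and mitosis were 0.23, 0.67 and 0.43. Quantile normalization gave 0.39, 0.49 and 0.33 for all members, G2 and mitosis and CDK inhibitors, and the values the authors deposited gave 0.39, 0.50 and 0.32. Averaging a gene's measured probes gave 0.42 for all members, 0.57 for G1, -0.60 for S phase entry and 0.17 for CDK inhibitors. With dim probes kept the G2 and mitosis median was 0.83, and on RefSeq mRNA probes, the setting added after seeing the data, the G1 median was 0.40. Among single members Cdk6, Tyms, Aurkb and Birc5 passed 2-fold with spike-in scaling, at 1.17, 1.21, 1.04 and 1.25, as did Mcm4 at 1.34. The group medians kept their sign under all 9 alternatives. Spike-in and median scaling shift every gene by the same constant, so all medians moved together in these settings. The causes behind the constants and behind the other shifts were not tested.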
